A study of Mus musculus with 20 samples.

Results

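The genes described here are 10 genes of prostaglandin metabolism, measured in quadriceps muscle of aged mice. They were taken from the count table by matching its Ensembl identifiers to gene symbols, and all 10 were found among the 55416 genes listed. Hpgd encodes 15-hydroxyprostaglandin dehydrogenase (15-PGDH), the enzyme that inactivates prostaglandin E2. Ptgs1 and Ptgs2 encode the cyclooxygenases, Ptges, Ptges2 and Ptges3 the prostaglandin E synthases, Ptgds and Ptgis the prostaglandin D and prostacyclin synthases, Ptger4 the EP4 receptor of prostaglandin E2, and Slco2a1 the transporter that takes prostaglandins into cells.

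Cyclooxygenases convert arachidonic acid, released from membranes by phospholipases, into prostaglandin H2, which the synthases turn into the separate prostaglandins. These act on receptors of nearby cells, and uptake followed by oxidation by 15-PGDH ends the signal. In skeletal muscle, prostaglandin E2 is known to act on muscle stem cells, and 15-PGDH is known to be more abundant in aged muscle, where myofibres and macrophages both hold it.

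The mice were male, wild type (WT), of strain C57BL/6J and 26 to 28 months old. After a short fast each received 1 intramuscular injection of 50 µL, either of saline (control, n = 10) or of a pluripotent stem cell secretome, a product of partially differentiated human embryonic stem cells (n = 10). The injected quadriceps was taken within hours for bulk RNA sequencing. The comparison asks how a single injection acts on the muscle transcriptome.

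Between 13286983 and 22987237 reads were counted per muscle. The myofibre markers (Acta1, Ckm, Myh4, Ttn and others, 8 genes) summed to at least 117760 CPM, which are counts scaled to the effective library size, in each muscle, as the labelled tissue would give. Ttn, which encodes titin, took 7.02 to 11% of the counts in libraries 1 to 5 (controls only), 16.4 to 21.1% in libraries 6 to 15 (Control 6 to 10 and Secretome 1 to 5), and 14.2 to 14.7% in libraries 16 to 20 (secretome-treated only). No batch is named in the labels, and the ranges come from this share alone. Outside libraries 6 to 15, treatment and library range cannot be told apart, so the comparison within libraries 6 to 15 is given beside that of all 20 muscles. The labels number the samples and do not name the animals, so p-values measure only the spread between these samples.

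The promoter of Hpgd is shown because Hpgd varied more between mice than nearly all other genes, and beside it that of Chrna1, the gene whose level followed it most closely (values below). Both are the 250 bases before the start site, read 5′ to 3′ on the strand of the gene, from RefSeq on build GRCm38.p6. Hpgd lies at chr8:56294302-56294551 on the plus strand and Chrna1 at chr2:73580339-73580588 on the minus strand. Capitals mark 2 E-box sequences, CAGCTG and CAGGTG, searched on both strands.
Hpgd: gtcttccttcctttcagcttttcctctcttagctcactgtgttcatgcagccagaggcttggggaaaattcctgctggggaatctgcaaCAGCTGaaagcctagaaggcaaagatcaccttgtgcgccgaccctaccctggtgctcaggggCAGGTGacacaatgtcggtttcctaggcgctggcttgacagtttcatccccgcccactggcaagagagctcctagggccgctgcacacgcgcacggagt
Chrna1: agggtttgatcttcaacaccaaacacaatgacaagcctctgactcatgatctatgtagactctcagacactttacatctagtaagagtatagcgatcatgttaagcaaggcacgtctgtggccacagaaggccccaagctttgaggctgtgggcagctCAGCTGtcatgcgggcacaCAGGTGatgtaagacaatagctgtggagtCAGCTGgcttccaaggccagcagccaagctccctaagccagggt

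The Hpgd window held CAGCTG from 161 to 156 bases and CAGGTG from 99 to 94 bases before the start site. The Chrna1 window held CAGCTG from 92 to 87 and from 44 to 39 bases, and CAGGTG from 73 to 68 bases before it. Of 32851 promoters in the table, 13% held CAGCTG, 17.2% held CAGGTG and 2.48% held both. A promoter was found for 9 of the 10 genes, all but Ptgis, and of these 1, Hpgd, held both sequences. The TATAAA sequence, searched on the gene's strand and found in 7.59% of promoters, occurred in 1 of the 9, that of Slco2a1, from 29 to 24 bases before the start site. These sequences were chosen after the values were seen, and a match does not show that a factor binds there.

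Ptges3 had by far the highest level. Per kilobase of exon (the union of all annotated isoforms), it averaged 32.0 ± 4.24 CPM (SD, n = 20), above the next gene in 20 of 20 muscles. Ptges3 is also known as p23, a co-chaperone of Hsp90. Hpgd (5.74 ± 5.75) and Ptges2 (3.95 ± 0.728), a membrane-associated synthase, followed, and their levels did not differ beyond their spread, since Hpgd was the higher of the pair in 8 of 20 muscles. Ptges2 in turn exceeded Ptges in 20 of 20 muscles. In whole muscle, fewer cells of a type and less RNA per cell cannot be told apart.

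The inducible synthase Ptges (0.724 ± 0.280 CPM per kilobase), the constitutive cyclooxygenase Ptgs1 (0.702 ± 0.187), Ptgis (0.586 ± 0.209), Slco2a1 (0.469 ± 0.190) and Ptger4 (0.371 ± 0.147) lay close together, and the means ± SD of each neighbouring pair overlapped. The inducible cyclooxygenase Ptgs2, at 0.135 ± 0.0973 CPM per kilobase with 0 to 37 reads per muscle, was below Ptger4 in 19 of 20 muscles. Ptgds was all but absent at this depth. It had 11 reads in Control 4, 1 read each in Control 7 and Control 10, and 0 reads in every other muscle, the 10 secretome-treated ones included. The difference in its mean log2 CPM had a permutation p = 0.212 (two-sided, 100000 resamples), and no fold change is given because both groups were at or near 0.

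None of these genes was called different between the treatments. Of the 10 genes, 9 passed the filter on low counts and 0 passed the 5% false discovery rate of edgeR's quasi-likelihood test, where 0.00691% of all 14471 tested genes did. The median log2 fold change of the 9 genes was -0.21, against -0.03 over all tested genes. Lower means after secretome were seen for 7 of 9, and for 8084 of all 14471. At an unadjusted p under 0.05, 1 of the 9 was lower and 0 were higher, where 9.21% of all tested genes were lower and 6.52% were higher. DESeq2 and limma's voom also called 0 of the 9, where DESeq2 called 213 of all 17982 genes it tested and voom 3 of 14471.

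**Figure D1:**
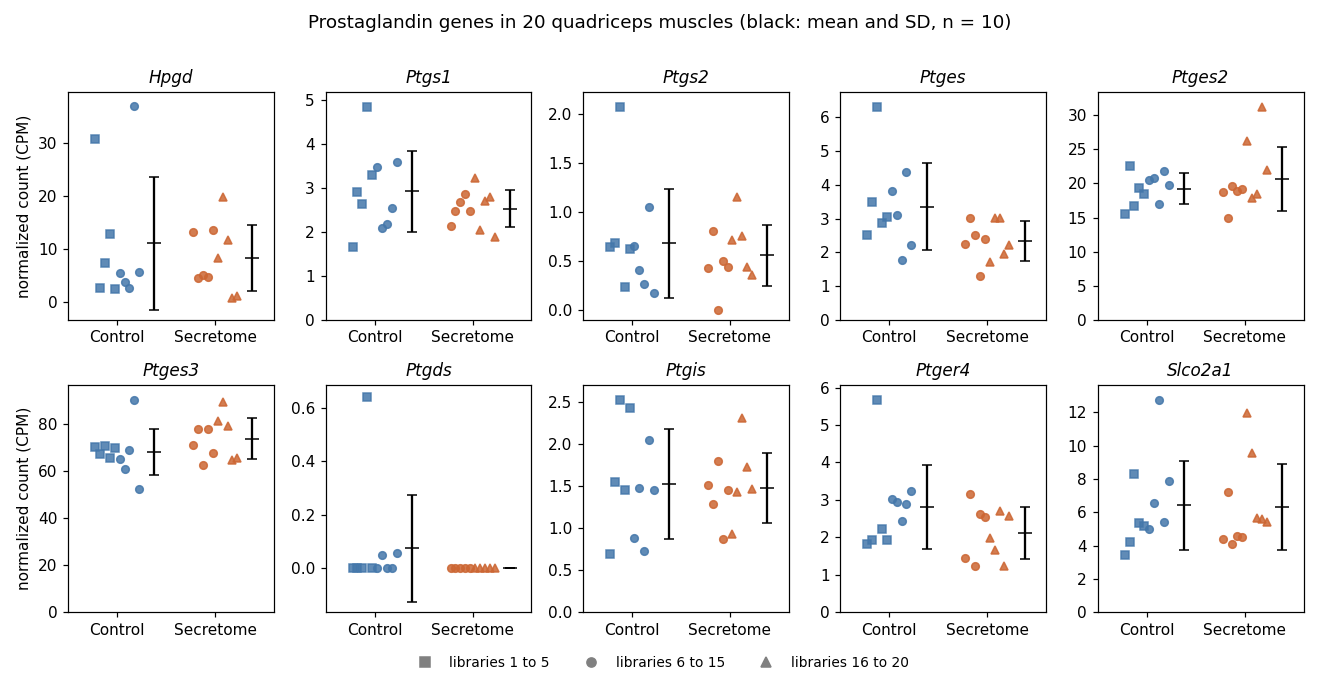
Normalized counts (CPM, vertical axes, linear) of the 10 prostaglandin genes in each of 20 quadriceps muscles, by treatment; each symbol is 1 muscle, its shape gives the range of library numbers, and the black marks give the mean and SD (n = 10). Hpgd runs from 0.756 to 36.9 CPM, and Control 3 is the highest muscle for Ptgs2, Ptges, Ptgis and Ptger4.

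Hpgd differed widely among mice of the same treatment. Control muscles had a lowest, median and highest Hpgd level of 2.44, 5.53 and 36.9 CPM, and secretome-treated muscles of 0.756, 6.69 and 19.9 CPM. The groups overlapped over nearly the whole range. In reads, this was 14 in Secretome 9 and 665 in Control 9, a 48.8-fold range in CPM. The means were 11.1 ± 12.5 CPM in control and 8.26 ± 6.17 CPM in secretome-treated muscle (log2 fold change -0.42, SE 0.59, adjusted p = 0.754).

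The mean difference in Hpgd rested on single controls. Control 9 had 36.9 and Control 1 had 30.7 CPM, while the other 8 controls were at 12.9 CPM or less. Leaving out Control 9 brought the log2 fold change to 0.01 (adjusted p = 0.994), and leaving out Control 1 brought it to -0.10. Of the 10 secretome-treated muscles, 5 were below the control median and 5 above it.

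The spread of Hpgd was among the widest of the whole table. Its SD within the 4 sets of 5 libraries with the same treatment and range was 1.51 on the log2 scale, against a median of 0.32 over tested genes, at percentile 99.7, with 40 of 14471 genes above it. Ptgs2 was at percentile 97.4. The other genes lay between percentile 81.1 (Ptgis) and percentile 16.7 (Ptges3, SD 0.19). The wide spread was present in each range of libraries, since Hpgd went from 2.44 to 30.7 CPM in Control 1 to 5, from 2.71 to 36.9 CPM in Control 6 to 10, and from 0.756 to 19.9 CPM in Secretome 6 to 10. It was narrower, at 4.51 to 13.5 CPM, in Secretome 1 to 5.

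Among the synthesizing enzymes, Ptges came closest to a difference. Control muscles had a lowest, median and highest level of 1.79, 3.08 and 6.30 CPM and secretome-treated muscles of 1.31, 2.32 and 3.03 CPM. Each of the 10 secretome-treated muscles was below the control median, as was the case for 3.39% of all tested genes, but the groups overlapped. The log2 fold change was -0.52 (SE 0.20, unadjusted p = 0.0175, adjusted p = 0.236), and without Control 3, the muscle with 6.30 CPM, it was -0.37 (adjusted p = 0.450).

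The cyclooxygenases showed smaller differences. Ptgs1 had 2.93 ± 0.922 CPM in control and 2.53 ± 0.419 CPM in secretome-treated muscle (log2 fold change -0.21, SE 0.17, adjusted p = 0.556), and without Control 4, its highest muscle, the log2 fold change was -0.10. Ptgs2 had 0.681 ± 0.559 and 0.558 ± 0.314 CPM (log2 fold change -0.29, SE 0.43, adjusted p = 0.769), and its highest control, Control 3 with 2.08 CPM, set the direction: without that muscle the log2 fold change was 0.08 (adjusted p = 0.959).

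Ptges2, Ptges3 and Ptgis had log2 fold changes between -0.04 and 0.11. Ptges2 had 19.2 ± 2.31 CPM in control and 20.7 ± 4.70 CPM after secretome (log2 fold change 0.11, SE 0.11, adjusted p = 0.661, and 0.0227 without Secretome 9, its highest muscle). Ptges3 had 68.1 ± 9.64 and 73.8 ± 8.71 CPM (log2 fold change 0.11, SE 0.09, adjusted p = 0.527). The standard errors of Ptges2 and Ptges3 were the smallest of the 9 genes. Ptgis had 1.53 ± 0.656 and 1.48 ± 0.418 CPM (log2 fold change -0.04, SE 0.24, adjusted p = 0.950).

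For the receptor, Ptger4, the lowest, median and highest levels were 1.82, 2.67 and 5.68 CPM in control and 1.24, 2.25 and 3.17 CPM in secretome-treated muscle. The groups overlapped, with 8 of 10 secretome-treated muscles below the control median. How common such a count was over all tested genes was not computed. The log2 fold change was -0.41 (SE 0.22, adjusted p = 0.368), and -0.24 without Control 3 (adjusted p = 0.648). The transporter Slco2a1 had 6.41 ± 2.69 CPM in control and 6.29 ± 2.59 CPM in secretome-treated muscle (log2 fold change -0.02, SE 0.23, adjusted p = 0.970).

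Control 3 was the highest of all 20 muscles for 4 of the 10 genes, Ptgs2, Ptges, Ptgis and Ptger4. The share of all tested genes that were highest in Control 3 was not computed, so this count cannot be read as particular to these genes. Leaving Control 3 out changed the genes with an unadjusted edgeR p under 0.05 from 2277 of 14471 to 1645 of 14533. The same muscle had the highest summed level of the 12 macrophage markers, 275.9 CPM, where controls ranged from 94.9 to 275.9 CPM and secretome-treated muscles from 62.8 to 209.8 CPM. Its 7 neutrophil markers summed to 108.8 CPM, where the control median was 12.7 CPM, and in Secretome 8 they summed to 118.3 CPM. No marker of either list was at 0 in all muscles of a group. The part of these cells in the levels above was not tested.

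**Figure D2:**
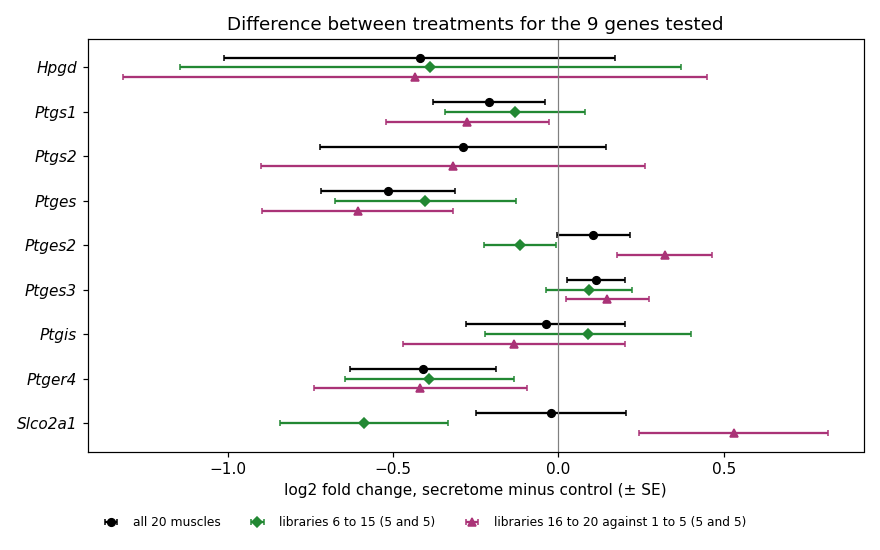
Log2 fold change (secretome minus control, horizontal axis, bars ± SE) of the 9 tested genes in all 20 muscles, within libraries 6 to 15, and between libraries 16 to 20 and 1 to 5; Ptgs2 was not tested within libraries 6 to 15. Hpgd has the longest bars, and Slco2a1 lies at -0.59 within libraries 6 to 15 and at 0.53 between the outer ranges.

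Within libraries 6 to 15, Slco2a1 was the gene with the lowest p. The controls had 5.01, 6.52, 12.8, 5.44 and 7.89 CPM, and the secretome-treated muscles had 4.37, 7.20, 4.07, 4.55 and 4.53 CPM. Of the 5 secretome-treated muscles, 4 were below every control, and the highest was above 3 of the 5 controls. The log2 fold change was -0.59 (SE 0.25, unadjusted p = 0.0362, adjusted p = 0.481), and without Control 8, the muscle with 12.8 CPM, it was -0.32 (unadjusted p = 0.151, adjusted p = 0.559 with edgeR). It was thus 1 of 8 genes tested here with an unadjusted p under 0.05 and lower, 0 were higher and 0 passed the false discovery rate, where 4.92% of 14469 genes were lower and 5.02% higher at that p, and 0% passed the rate. DESeq2 and voom also called 0 of the prostaglandin genes in these libraries, where DESeq2 called 37 of all 15390 genes it tested and voom 0 of 14469.

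Hpgd in these libraries had 5.43, 3.77, 2.71, 36.9 and 5.63 CPM in controls, and 13.2, 4.51, 5.15, 4.68 and 13.5 CPM after secretome. Apart from Control 9, each control was below at least 2 of the 5 secretome-treated muscles. The log2 fold change was -0.39 (SE 0.76, adjusted p = 0.870) with Control 9 and 0.91 without it (adjusted p = 0.589), so that its direction turned on 1 mouse. Ptges had a log2 fold change of -0.40 (SE 0.27, adjusted p = 0.620) and Ptger4 of -0.39 (SE 0.26, adjusted p = 0.607). Single muscles moved both, since Ptges was at -0.24 without Control 9 and -0.26 without Secretome 4, and Ptger4 was at -0.25 without Secretome 3. Ptgs2 fell below the filter in this subset.

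The differences within libraries 6 to 15 were compared with those between libraries 16 to 20 and 1 to 5. For Slco2a1 the latter was 0.53 (SE 0.29), and the 2 differences were apart by -1.13 (SE 0.41, unadjusted p = 0.0109, adjusted p = 0.281). For Ptges2, with -0.12 within and 0.32 between, they were apart by -0.45 (SE 0.20, unadjusted p = 0.0375, adjusted p = 0.407). None of the 9 genes passed the false discovery rate for this test, which 0.0553% of all tested genes passed, and 2 of 9 were lower at an unadjusted p under 0.05, against 5.51% of all tested genes. Ptges2 averaged 23.1 ± 5.60 CPM in Secretome 6 to 10, with 31.2 CPM in Secretome 9 and 26.2 CPM in Secretome 6, and averaged 18.5 CPM in Control 1 to 5, 19.96 CPM in Control 6 to 10 and 18.3 CPM in Secretome 1 to 5.

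Another 39 genes of the pathway covered the supply of arachidonic acid, other synthases, further breakdown, other receptors, other transporters and the leukotriene branch. Of these, 27 were tested, 22 had lower and 5 higher means after secretome, and the median log2 fold change was -0.17. At an unadjusted p under 0.05, 5 were lower and 0 higher, where 9.21% of all 14471 tested genes were lower and 6.52% higher, and 0 passed the false discovery rate with edgeR, as did 0.00691% of all tested genes. DESeq2, which called 1.18% of 17982 genes over the whole table, called 1 of the list, Faah (log2 fold change -2.04, adjusted p = 0.0299 with DESeq2), a hydrolase of fatty acid amides that was below the filter of edgeR, with 1 to 26 reads in control and 0 to 6 reads in secretome-treated muscles, and voom called 0.

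The 5 genes with a low unadjusted p in edgeR belonged to 3 roles. Cbr1, a carbonyl reductase that can convert prostaglandin E2 to F2α, had a log2 fold change of -0.43 (SE 0.14, adjusted p = 0.174), with 13.5 ± 3.87 CPM in control and 10.0 ± 1.46 CPM after secretome. Tbxas1, the thromboxane synthase, was at -0.56 (adjusted p = 0.298). The prostacyclin receptor Ptgir was at -0.68 (adjusted p = 0.213) and the prostaglandin F receptor Ptgfr at -0.76 (adjusted p = 0.309). Slco2b1, an organic anion transporter, was at -0.45 (adjusted p = 0.195).

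With edgeR, a difference of Ptgir and Slco2b1 was called only in the comparison outside libraries 6 to 15. Both were called at the 5% rate when libraries 16 to 20 were set against libraries 1 to 5, as were 3.68% of all tested genes, with log2 fold changes of -1.11 (adjusted p = 0.0360) for Ptgir and -0.67 (adjusted p = 0.0346) for Slco2b1. Within libraries 6 to 15 they were -0.05 (adjusted p = 0.950) and -0.15 (adjusted p = 0.709). The tests of these shifts gave adjusted p = 0.331 for Ptgir and adjusted p = 0.446 for Slco2b1. Cbr1 was at -0.40 within libraries 6 to 15 (SE 0.17, adjusted p = 0.481), where 25 genes of the list could be tested and 4 (Alox5ap, Cbr1, Mgll and Pla2g6, named after their values were seen) were lower at an unadjusted p under 0.05, as were 4.92% of all genes tested in these libraries.

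The 2 genes of each role with the highest CPM mostly had small differences. In the supply of arachidonic acid, where 8 of 8 tested genes had lower means and 0 had an unadjusted p under 0.05, the phospholipase Pla2g4e was at a log2 fold change of -0.03 and the monoacylglycerol lipase Mgll at -0.13 (-0.31 within libraries 6 to 15). Among the synthases, the aldose reductase Akr1b3 was at -0.05 and Prxl2b, a prostamide synthase, at -0.06. The reductases Ptgr2 and Ptgr3, which act on the product of 15-PGDH, were at 0.15 and 0.09. The exporter Abcc4 was at 0.02 and Slco3a1 at 0.03. The receptor-associated Ptgfrn was at -0.17. In the leukotriene branch, Lta4h had 18.1 ± 3.05 CPM in control and 18.03 ± 0.925 CPM after secretome, and Alox5ap, an accessory protein of 5-lipoxygenase, was at -0.49 with an SE of 0.38, and at -1.03 within libraries 6 to 15 (SE 0.30, adjusted p = 0.415). Their adjusted p-values ranged from 0.518 for Ptgr2 to 0.986 for Lta4h.

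Because macrophages are a known source of 15-PGDH, Hpgd was compared with macrophage genes across the 20 muscles, after the mean of each treatment was removed. All 11 macrophage genes that could be tested correlated positively with Hpgd, with Pearson's r from 0.085 to 0.588, but 0 of 11 passed a permutation test adjusted over the 11. For Adgre1, which encodes the F4/80 antigen, r was 0.588 (permutation p = 0.00825, adjusted p = 0.0907) and Spearman's rho was 0.546 (permutation p = 0.0156, adjusted p = 0.121). Without the 2 muscles farthest from the median of Adgre1, Control 8 and Secretome 9, r was 0.388. Within libraries 6 to 15 it was 0.546 (permutation p = 0.195, adjusted p = 0.252).

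Cd68, a lysosomal protein of macrophages, hardly followed Hpgd, with r = 0.198 (permutation p = 0.409, adjusted p = 0.450) and rho = 0.161 (permutation p = 0.504, adjusted p = 0.555). Without the 2 farthest muscles, Control 2 and Secretome 3, r was 0.0951, and within libraries 6 to 15 it was -0.326. Control 9, with the most Hpgd, had 1.78 CPM of Cd68, below the control median of 3.35 CPM, but 8.27 CPM of Adgre1, above the control median of 5.69 CPM. The engulfment receptor Mertk had the weakest correlation, r = 0.085 (permutation p = 0.725). The other 8 genes lay in between, from 0.201 for the scavenger receptor Cd163 to 0.476 for the mannose receptor Mrc1, with the complement genes C1qa, C1qb and C1qc at 0.452, 0.373 and 0.369, the growth factor receptor Csf1r at 0.419, lysozyme Lyz2 at 0.469 and the Fc receptor Fcgr1 at 0.347. Over the 11 genes, Spearman's rho ran from 0.0722 to 0.546 (adjusted permutation p from 0.121 to 0.767), and r without each gene's 2 farthest muscles ran from 0.0951 to 0.527.

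The correlations were higher when the means of all 4 sets of libraries were removed. Then 8 of the 11 genes passed, with r up to 0.713 for Mrc1 and an adjusted p of 0.0215 for Adgre1 (r = 0.643). Within libraries 6 to 15 alone, 0 of 11 passed and 9 of 11 were positive, with Cd163 at 0.828 and Mertk at -0.488 as the extremes (smallest adjusted permutation p = 0.0682). Adgre1 and Csf1r themselves had lower means after secretome, with log2 fold changes of -0.82 (adjusted p = 0.153) and -0.76 (adjusted p = 0.150), and 11 of 11 macrophage genes had lower means, 6 of them at an unadjusted p under 0.05 and 0 past the false discovery rate of edgeR. Over all 14471 tested genes, 8084 had lower means and 9.21% were lower at that p. Within libraries 6 to 15, 11 of 11 macrophage genes had lower means, 7 of them at an unadjusted edgeR p under 0.05 and 0 past the false discovery rate. Of all 14469 genes tested there, 7532 had lower means and 4.92% were lower at that p.

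**Figure D3:**
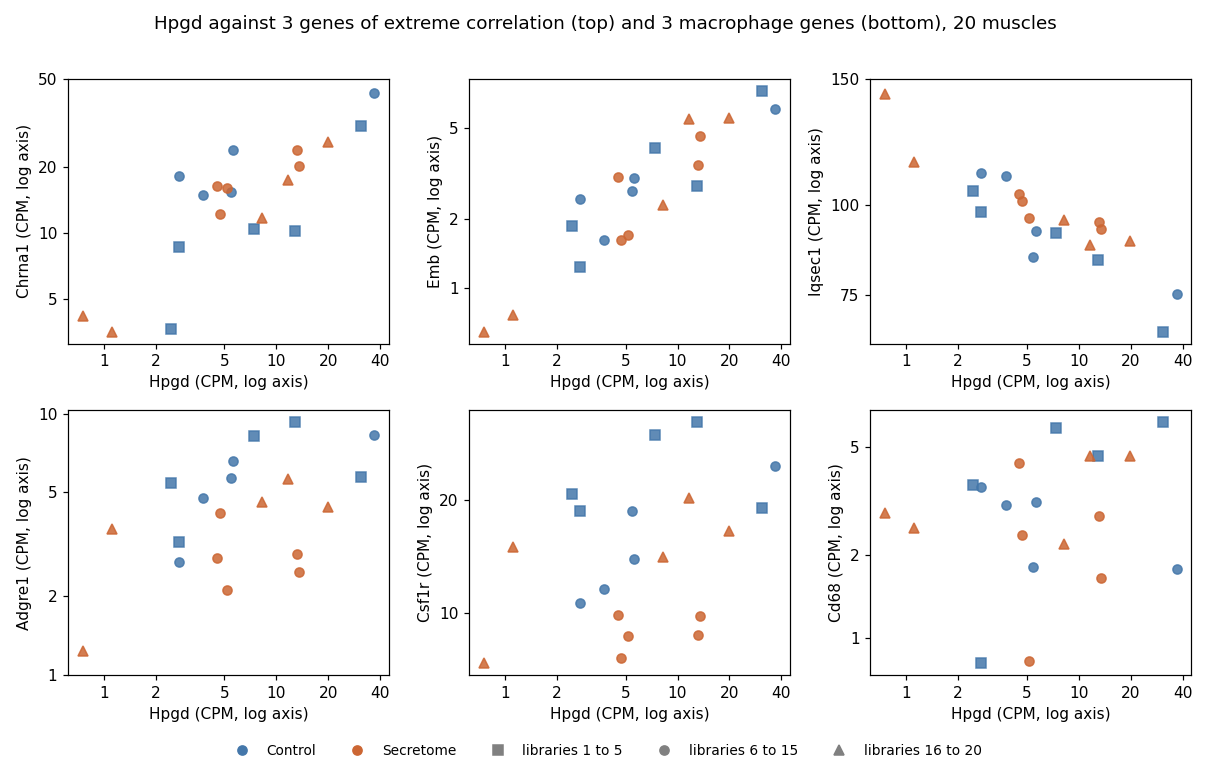
Hpgd (horizontal axes, CPM, log scale) against Chrna1, Emb and Iqsec1 (top) and the macrophage genes Adgre1, Csf1r and Cd68 (bottom; vertical axes, CPM, log scale) in 20 muscles, with treatment by colour and library range by shape. Chrna1 and Emb rise and Iqsec1 falls along Hpgd in both treatments, with Secretome 9 and 10 at the low end, while the macrophage genes scatter more widely.

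By the measure below, none of the genes named as most like Hpgd was one of the macrophage genes above. Over 13172 genes with a mean of at least 1 CPM, and with the means of the 4 sets removed, the highest Pearson's r across the 20 muscles belonged to Chrna1 (0.920), Emb (0.914), Lpin2 (0.905), Myl12a (0.889) and Tnfrsf23 (0.882), and 36 genes were above 0.8. Chrna1 encodes the α-subunit of the muscle acetylcholine receptor, Emb the cell adhesion protein embigin, Lpin2 a phosphatidate phosphatase and Myl12a a myosin regulatory light chain. The lowest r belonged to Iqsec1 (-0.919) and to the transcription factor Zbtb16 (-0.888). These values are descriptions without a test, since the genes were picked as the extremes.

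Muscle by muscle, Chrna1 was at 43.1 CPM in Control 9 and 30.4 CPM in Control 1, the muscles with the most Hpgd. It was at 4.21 CPM in Secretome 9 and 3.57 CPM in Secretome 10, the muscles with the least. Iqsec1 ran the other way, with 75.2 and 66.7 CPM in Control 9 and Control 1, and 143 and 115 CPM in Secretome 9 and Secretome 10. Without these 4 muscles, r over the other 16 was 0.735 for Chrna1, 0.728 for Emb and -0.753 for Iqsec1. Within libraries 6 to 15, r was 0.893 for Chrna1, 0.834 for Emb and -0.845 for Iqsec1.

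Chrna1 is among the genes known to be induced in denervated muscle, so other such genes were examined, a list chosen after Hpgd's closest genes had been seen and therefore not tested. By the same measure, r with Hpgd was 0.658 for the receptor kinase Musk, 0.650 for the adhesion molecule Ncam1, 0.650 for the cell cycle inhibitor Cdkn1a, 0.641 for the receptor subunit Chrnd and 0.631 for Gadd45a. It was lower for the transcription factor Runx1 (0.492) and the myogenic factor Myog (0.150). The order differed within libraries 6 to 15. There, r was 0.807 for Gadd45a, 0.761 for Myog, 0.738 for Chrnd and 0.726 for Cdkn1a, and 0.424 for Ncam1, 0.395 for Runx1 and 0.309 for Musk. Chrng was below the filter.

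The other genes had different companions by the same measure. Ptges2 was closest to Uqcrc1 (r = 0.917), Ndufs1 (0.916) and Ndufv1 (0.907), which encode subunits of respiratory complexes III and I. Ptgs2 was closest to the myeloid transcription factor Spi1 (0.810), Marcksl1 (0.794) and Snx20 (0.792), and Ptges to Mogs (0.857), Tomm6 (0.855) and the immune adaptor Dok3 (0.855). Ptger4 was closest to Arhgap25 (0.829), Elovl1 (0.819) and the phosphatase Ptpre (0.808).

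For the remaining genes, r was at most 0.836. Ptges3 was closest to Rnf20 (0.836), Trnau1ap (0.813) and Hnrnpa3 (0.808), Ptgs1 to Epb41l2 (0.754), 4930451G09Rik (0.749) and Gm38009 (0.720), and Ptgis had r = 0.738 with Gm10221 and 0.735 with Plau. Slco2a1 was closest to Exosc1 (0.767), 6430548M08Rik (0.762) and Gm37536 (0.761). In libraries 6 to 15 alone, r was 0.900 for Ptges2 with Uqcrc1 and 0.949 for Ptgs2 with Spi1. The latter rests on only 0 to 19 reads of Ptgs2 per muscle, below the filter on low counts in this subset.

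Each tested gene was also compared with a score for each of 9 cell types, the mean over the type's markers of log2 CPM minus the gene's mean. Of the 81 pairs, 0 passed a permutation test adjusted over all of them, and 16 had an unadjusted p under 0.05. Hpgd went against the endothelial score (r = -0.601, permutation p = 0.0068, adjusted p = 0.156; rho = -0.547, permutation p = 0.0159). Without Control 1 and Secretome 9, the muscles farthest from the median of that score, r was -0.393, and within libraries 6 to 15 it was -0.401. With the neutrophil score Hpgd had r = 0.528 (permutation p = 0.0216, adjusted p = 0.175; rho = 0.537, permutation p = 0.0172), which was 0.60 without Control 3 and Secretome 8 and 0.343 within libraries 6 to 15. For the macrophage score r was 0.47 (permutation p = 0.0454, adjusted p = 0.232) and rho was 0.447 (permutation p = 0.0546). Without Control 3 and Secretome 8 this r was 0.476, and within libraries 6 to 15 it was 0.794 (permutation p = 0.0354, adjusted p = 0.298). With the means of the 4 sets removed, r was 0.729 (adjusted p = 0.0985) for the macrophage score. It was then -0.663 (adjusted p = 0.0985) for the endothelial and 0.560 (adjusted p = 0.238) for the neutrophil score.

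Ptges2 went with the myofibre score (r = 0.597, permutation p = 0.00188, adjusted p = 0.135; rho = 0.608, permutation p = 0.00618). Without Control 3 and Control 10 this r was 0.659, and with the means of the 4 sets removed it was 0.582 (permutation p = 0.021, adjusted p = 0.178). Within libraries 6 to 15, the range that has both treatments, it was -0.0195 (permutation p = 0.955). Ptges3 went against the smooth muscle and pericyte score (r = -0.623, permutation p = 0.00334, adjusted p = 0.135; rho = -0.611, permutation p = 0.00639), with r = -0.547 without Secretome 5 and Secretome 7 and -0.638 within libraries 6 to 15. Ptges went against the myofibre score at r = -0.577 (permutation p = 0.013, adjusted p = 0.156; rho = -0.462, permutation p = 0.0527), and at -0.332 without Control 3 and Control 10 and -0.565 within libraries 6 to 15.

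**Figure D4:**
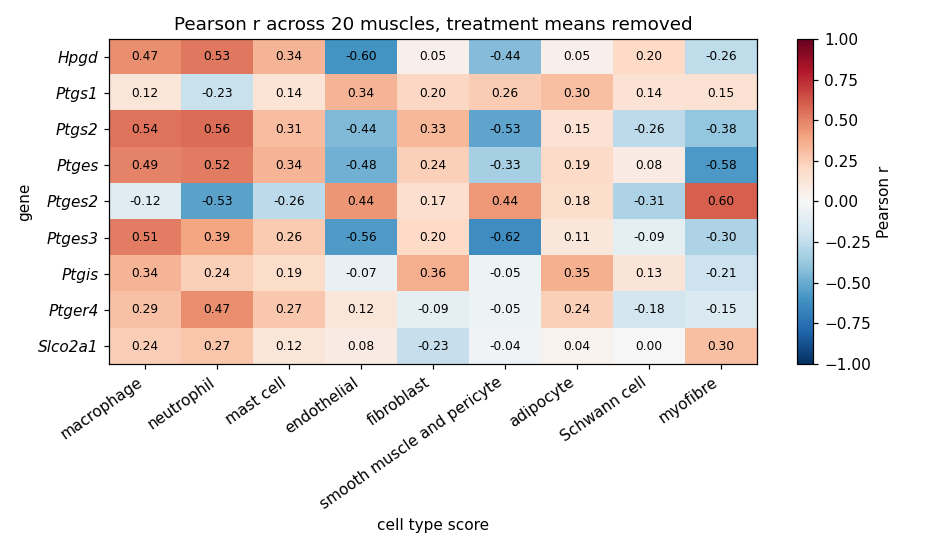
Pearson's r across 20 muscles, with treatment means removed, between each of the 9 tested prostaglandin genes (rows) and each of 9 cell type scores (columns); red is positive, blue negative. Hpgd, Ptgs2, Ptges and Ptges3 are positive for macrophage markers (0.47 to 0.543) and negative for endothelial markers, and Ptges2 is positive for myofibre markers (0.597).

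Among themselves the genes varied mostly apart. In a comparison added after the values were seen, 36 pairs were correlated and 1 passed after adjustment over the 36, that of Ptges3 with Ptgs2 (r = 0.706, permutation p = 0.00054, adjusted p = 0.0194; rho = 0.803, permutation p = 4e-05, adjusted p = 0.00144). Without the 2 farthest muscles r was 0.812, and within libraries 6 to 15, where Ptgs2 had only 0 to 19 reads per muscle, it was 0.728. Hpgd passed with none of the other 8 genes. Its r ran from -0.409 with Ptges2 (permutation p = 0.0853, adjusted p = 0.512) to 0.536 with Ptges3 (permutation p = 0.0173, adjusted p = 0.181; rho = 0.496, permutation p = 0.0302), and the latter was 0.308 without the 2 farthest muscles and 0.502 within libraries 6 to 15. With Slco2a1, the transporter that works beside 15-PGDH, r was -0.104 (permutation p = 0.669, adjusted p = 0.860).

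Some of these genes overlap others on the chromosome in the GENCODE M21 annotation. Ptger4 overlaps Ttc33 on the opposite strand, which had 10404 reads over all muscles, against 897 for Ptger4, and Ptgis overlaps 1110018N20Rik on the opposite strand, with 568 reads against 549. Hpgd, with 3552 reads, shares a stretch of its strand with the predicted gene Gm45540, which had 340 reads. The libraries were stranded, but the strand setting of the counting is not given in the sources used here. Where it was not used, reads of such pairs cannot be told apart.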

How the data were processed

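Stranded total RNA libraries from 20 quadriceps muscles were sequenced from both ends. The authors deposited whole-number read counts per gene without normalization, and the submitters' processing notes name cutadapt 1.16, STAR 2.7.9a, featureCounts 1.6.3, DESeq2 1.34.0 and build GRCm39. Groups came from the sample labels. Identifiers were joined to symbols and exon lengths through GENCODE M21, and at least 98.6% of counts per library lay on identifiers with a symbol.

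After filterByExpr and TMM scaling, edgeR 4.0.16 (R 4.3.3) fitted treatment alone, and its quasi-likelihood F-test (robust) was adjusted after Benjamini and Hochberg across every tested gene, with a 5% false discovery rate. An SE is the absolute log2 fold change divided by √F. P-values measure the spread between these samples. Correlations used log2 CPM (prior count 2) and 100000 two-sided shuffles within treatment. Where the means of the 4 sets of libraries were removed, shuffles were within those sets, and where no means were removed, over all muscles. DESeq2 1.42.0, RLE scaling, no low-count filter, voom of limma 3.58.1 with quality weights, a replicate block, a library range term and each muscle left out were tried. Procedures were tested on simulated data. The genes, lists and library ranges were chosen with earlier results of these data known. The text names every listed prostaglandin gene, pathway genes with an unadjusted p under 0.05 or the 2 highest levels of a role, the macrophage genes, and the genes of most extreme correlation. Coordinates are those of RefSeq on GRCm38.p6, and none were converted. Some correlations of single genes with Hpgd and Ptgis are not reported here.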

Additional observations from a re-analysis of the deposited data

Results flagged for a closer look

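Of 20 groups of 10 muscles examined, 1 for each gene and treatment, 3 had a muscle set apart from the others, with a gap to its neighbour, relative to the whole range of the group on the log2 CPM scale, above the 95% critical value for 10 samples. Chance gives about 1 in 20, here about 1 group, if the values of a group are continuous. That does not hold for Ptgds, which had 0 reads in most controls. It had 0 reads in all 10 secretome-treated muscles, so that group could not be flagged. For Ptger4, Control 3 was the highest control with 5.68 CPM and the next was at 3.25 CPM, a gap of 0.494 of the range. Control 3 also had the highest summed macrophage and neutrophil markers among controls, 275.9 and 108.8 CPM, and the part of those cells in this value was not tested. For Ptgs2, Secretome 3 had 0 reads and the next muscle was at 0.351 CPM, a gap of 0.587 of the range. For Ptgds, Control 4 had 11 reads and the next muscle had 1, a gap of 0.780 of the range. The same muscle had the highest summed markers among all muscles for mast cells (33.2 CPM), adipocytes (271 CPM) and smooth muscle and pericytes (388 CPM). The part of those cells in the Ptgds reads was not tested.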

How the results depend on the processing

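None of the prostaglandin genes passed the 5% false discovery rate under any alternative run. The smallest adjusted p-value over the genes ranged from 0.146 to 0.450 when each of the 20 muscles was left out in turn, and from 0.194 (DESeq2) to 0.789 (a term for the library ranges) otherwise. Of 234 other fits of the 9 genes in all libraries, 213 kept the direction and 21 reversed it. With voom and quality weights, the log2 fold change was 0.19 for Hpgd, 0.0594 for Ptgs2, 0.13 for Ptgis and, within libraries 6 to 15, 0.73 for Hpgd. With a term for the library ranges it was 0.0764 for Ptgis, -0.13 for Ptges2 and -0.60 for Slco2a1. With the replicate number as a block, it was -0.0956 for Hpgd, -0.13 for Ptgs2 and 0.0046 for Ptgis, 0 genes were called and the smallest adjusted p-value was 0.329. Deviations from the treatment means correlated weakly between muscles with the same number (r from -0.24 to 0.221, with 2 of 10 pairs over 0.1). Muscles with the same number always lay in different library ranges, so these values cannot decide whether the numbers pair the samples. Leaving out 1 muscle at a time gave -0.66 to 0.0128 for Hpgd, -0.47 to 0.077 for Ptgs2, -0.13 to 0.071 for Ptgis, -0.17 to 0.14 for Slco2a1, -0.28 to -0.10 for Ptgs1 and 0.0227 to 0.15 for Ptges2, and within libraries 6 to 15 it gave -0.65 to 0.91 for Hpgd and -0.0536 to 0.30 for Ptgis. The cause of these reversals was not tested.

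Among the other pathway genes, DESeq2 called 1 (Faah), a gene outside the genes edgeR tested, and no other alternative called any. With the means of the 4 sets of libraries removed, 8 macrophage genes correlated with Hpgd, against 0 with treatment means removed and 0 in each other alternative, and the cause was not tested. No pair of a prostaglandin gene and a cell type score passed under any alternative, with adjusted p-values of at least 0.0705. Ptgs2 and Ptgds had too few reads for a difference to be detectable unless it was large.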
